A study of Bos taurus with 6 samples.

Results

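The carbonic anhydrase genes described here are CA2, CA3, CA4, CA8, CA11 and CA14, which are 6 of the 18010 genes listed in the transcript files of cattle muscle. They were selected by gene name, with the measured values of these animals and the difference between the breeds already known. Differences in the level of the 6 genes between the breeds are therefore a description and no evidence, and any call among them is given as a count. Only the shares of transcripts within a gene were compared by a test. One RNA-Seq library was made per animal from the longissimus dorsi, the long muscle of the back, in 3 Shandong black (B) and 3 Luxi (L) cattle. All animals were 18 months old, and no treatment is named for either breed. Shandong black cattle is a breed with Japanese black, Luxi and Bohai black cattle in its ancestry, and Luxi cattle is a local yellow breed. The breeds came from different companies, so breed and farm of origin cannot be told apart.

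Carbonic anhydrases are zinc enzymes that convert carbon dioxide and water to bicarbonate and a proton, and back. In muscle they help carry carbon dioxide out of the fibre, buffer the protons that come with lactic acid, and supply bicarbonate to the enzymes that fix it. The family members differ in place and activity. CA2 is a fast enzyme of the cytosol, CA3 is a slow enzyme of the cytosol that is abundant in slow muscle fibres and in fat cells, and CA4 is anchored to the cell surface, including that of capillaries. CA14 spans the membrane with its active site outside the cell and is known from the muscle fibre membrane. CA8 and CA11 lack zinc-binding residues and have no classical activity, and CA8 binds the inositol trisphosphate receptor.

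Levels are FPKM (fragments per kilobase of transcript, scaled to the depth of the library) summed over the transcripts of a gene. Differences are given as Luxi minus Shandong black on log2(FPKM + 1) with the standard error (SE) of limma, and on this scale the change of a gene with low FPKM is understated. Libraries held 14.08 to 14.62 gigabases of aligned sequence in the Shandong black animals and 17.52 to 17.99 gigabases in the Luxi animals. Luxi replicate 1 stood apart from the other libraries. Its summed FPKM over 7 muscle genes, ACTA1 and CKM among them, was 23563, against 46001 to 70786 in the other 5 animals. ACTA1 made up most of this sum, with 12237 FPKM in that library and 32188 to 54910 in the others. CKM, DES and MYOT were also lowest there, while MB, at 7894 FPKM, lay within the 5733 to 8932 of the others and NEB, at 590 FPKM, was the highest of the 6 animals. Differences and list medians that rest on this library are also given without it. XIST, the RNA of the inactive X chromosome of females, lay at 4.83 to 14.04 FPKM in the Shandong black animals and at 0 to 0.207 in the Luxi animals. The labels give no sex, so sex and breed cannot be told apart.

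CA3 made up most of the carbonic anhydrase transcript pool in every animal, and CA14 differed between the breeds in the opposite direction to it. In the Shandong black animals, CA3 held 99.4, 98.7 and 99.4% of the summed FPKM of the family in replicates 1 to 3. In the Luxi animals, it held 67.3, 91.8 and 97.0%. Its share was below that of every Shandong black animal in each Luxi animal. The CA3 to CA14 ratio was 906, 281 and 491 in the Shandong black animals and 2.92, 13.4 and 42.0 in the Luxi animals, again without overlap. Of the 6 genes, 5 reached a breed mean of 1 FPKM, the filter for the test, and CA11 passed it through Luxi cattle alone. One of the 5, CA14, met the criteria for a called gene (limma adjusted p below 0.05, with a log2 difference of 1 or more in either direction), in the direction of higher in the Luxi animals. Its call held in 5 of the 6 fits that left out an animal and was lost without Shandong black replicate 3. CA11 was called in 1 of those 6 fits. Of all 9781 genes tested, 2.57% were called, 1.54% higher and 1.02% lower in the Luxi animals. The animals of the breeds did not overlap in CA11 and CA14, both higher in the Luxi animals, where 20.0% of all genes tested were higher and 9.13% lower without overlap. Nothing is read from these counts, or from the fits in which a call of CA14 or CA11 held, since the genes were chosen on the same contrast.

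**Figure D1:**
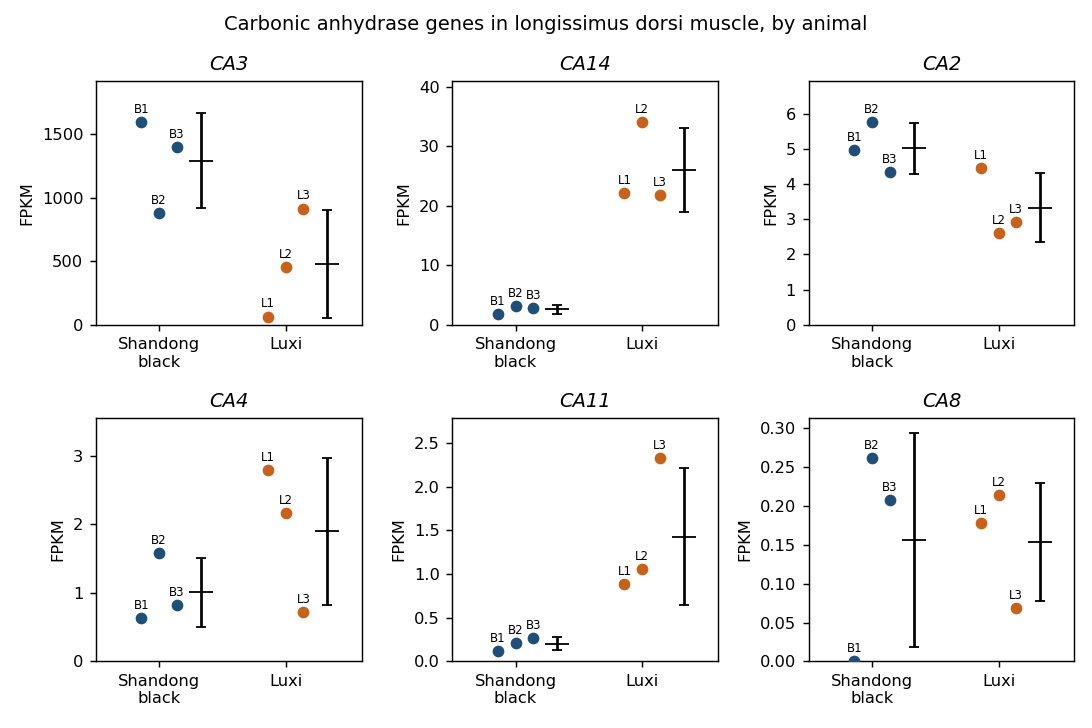
FPKM (linear axes starting at 0) of each carbonic anhydrase gene in each animal, with Shandong black cattle (B1 to B3) in blue and Luxi cattle (L1 to L3) in orange; the black marks show the mean and SD of 3 animals. The breeds are separate for CA14 and CA11, and for CA3 the highest Luxi animal, at 915 FPKM, lies just above the lowest Shandong black animal, at 878 FPKM.

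CA3, the slow cytosolic enzyme, lies on chromosome 14 of ARS-UCD1.2 (chr14:77028975-77038971, minus strand). Its FPKM was 1599, 878 and 1398 in the Shandong black animals and 64.5, 457 and 915 in the Luxi animals. The highest Luxi animal was slightly above the lowest Shandong black animal, so the breeds overlapped. The mean FPKM was 1292 ± 372 (SD, n = 3) in the Shandong black animals and 479 ± 426 (SD, n = 3) in the Luxi animals, a log2 difference of -2.05 (SE 0.92). The spread was wider in the Luxi animals, with 14.2 times between the lowest and the highest animal, against 1.82 times in the Shandong black animals. Luxi replicate 1 set much of the difference, and without it the log2 difference was -0.95, with a ratio of the breed means of 1.88. Among the 9781 genes tested, CA3 ranked 20, 25 and 21 by FPKM in the Shandong black animals and 307, 62 and 40 in the Luxi animals.

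The coverage of single exons showed where CA3 overlapped between the breeds. The leading transcript has 7 exons, and the ratio of the breed means, Shandong black over Luxi, was 2.36 to 3.47 across them. In the 5 exons nearest the 5′ end, every Shandong black animal had more coverage per gigabase than every Luxi animal. In exons 6 and 7, the latter of 983 bases and the longest, Luxi replicate 3 was above Shandong black replicate 2. That Shandong black animal had 0.294 times as much coverage on exon 7 as on exon 4, while the other 5 animals had 0.456 to 0.510 times as much. Over 6108 transcripts, the part nearer the 5′ end held a median of 57.2% of the coverage of a transcript in the same library, the highest of the 6 libraries (range 53.1 to 57.2%). The part of this difference in the overlap of CA3 was not tested.

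**Figure D2:**
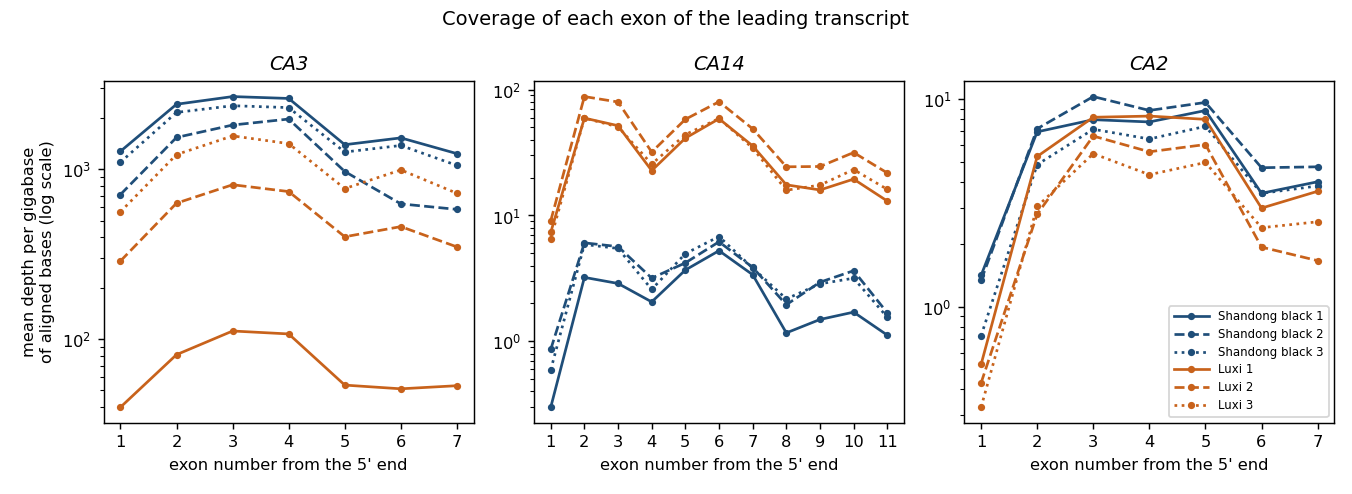
Mean depth per gigabase of aligned bases (log axis) on each exon of the leading transcript of CA3, CA14 and CA2, numbered from the 5′ end, with one line per animal (Shandong black cattle blue, Luxi cattle orange). For CA14 all 11 exons are separate between the breeds, for CA3 the 5 exons at the 5′ end, and for CA2 exons 1, 6 and 7.

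A second annotated CA3 transcript starts inside the first part of the gene. Its 5′ end lies at position 77037982, and a first exon of 374 bases takes the place of the first 2 exons of the leading transcript. It held 0.372, 0.00214 and 0.522% of the FPKM of CA3 in the Shandong black animals and 2.30, 1.95 and 1.35% in the Luxi animals. All Luxi animals were above all Shandong black animals (exact two-sided permutation p = 0.1, the smallest that 3 against 3 animals can give, and 0.1 after adjustment over the 4 transcripts tested). The level of this transcript was 5.94, 0.0188 and 7.30 FPKM in the Shandong black animals and 1.48, 8.90 and 12.3 FPKM in the Luxi animals, and it overlapped between the breeds. Transcripts assembled on the opposite strand over CA3 reached at most 4.0 FPKM. The authors ran StringTie with a strand option, while the labels name the kit without saying that it keeps the strand.

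CA3 is also a gene of slow fibres and fat cells, so marker lists for both are given beside it. The summed FPKM of 11 slow-fibre genes was 33646, 27017 and 29389 in the Shandong black animals and 13095, 3452 and 14115 in the Luxi animals. It was lower in every Luxi animal. Of the 11 genes, 10 had a negative log2 difference, 6 of them without overlap, against 9.13% of all genes tested. Called lower was 1, the slow troponin TNNI1 (log2 difference -2.32, limma adjusted p = 0.047), against 1.02% of all genes tested. The median log2 difference of the list was -1.11, or -1.64 without Luxi replicate 1. MYL3 was the 1 gene with a positive value, and at 3.33 it was the largest of the list in size. It had 13.1, 46.4 and 26.6 FPKM in the Shandong black animals and 1180, 63.5 and 244 FPKM in the Luxi animals, without overlap, and was not called (limma adjusted p = 0.119). The TNNI1 call was lost in 4 of the 8 alternatives, reference transcripts alone among them, and in 4 of the 6 fits that left out an animal. Reference transcripts held 12.5% of the TNNI1 FPKM. The summed FPKM of 8 fat cell genes was 196, 134 and 174 in the Shandong black animals and 13.2, 27.3 and 37.8 in the Luxi animals. All 7 fat cell genes tested had a negative log2 difference, and 6 were lower without overlap, against 9.13% of all genes tested. Called lower were 5, against 1.02% of all genes tested, namely ADIPOQ, PLIN1, FABP4, LIPE and CIDEC. These encode adiponectin, a lipid droplet coat protein, a fatty acid carrier, a lipase and a lipid droplet protein. LEP was lower without overlap and was not called (limma adjusted p = 0.0567), and PLIN4 overlapped between the breeds (log2 difference -0.38). The median log2 difference of the 7 genes was -2.78, or -2.33 without Luxi replicate 1, against 0.13 over all genes tested. PLIN1, with a log2 difference of -3.06 (limma adjusted p = 0.00701), was called in each of the 8 alternatives and in 6 of the 6 fits without an animal. The calls of the others were less stable. ADIPOQ was called in 5 of the 8 alternatives and 1 of the 6 fits without an animal, LIPE in 5 and 2, FABP4 in 7 and 3, and CIDEC in 6 and 3.

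Within the Shandong black animals, CA3, the slow-fibre sum and the fat cell sum had the same order. Replicate 1 was highest and replicate 2 lowest. MYL2 made up most of the slow-fibre sum, at 24909, 16912 and 20824 FPKM. ADIPOQ and FABP4 made up most of the fat cell sum in these animals. Other genes of the lists were mixed in order. MYH7, TNNI1 and PLIN1 were highest in replicate 2, while MYOZ2 and CASQ2 kept the order of CA3. Of the MYH7 FPKM, 2.3% lay on reference transcripts. Within the Luxi animals, the order of CA3 was that of the fat cell sum, with replicate 1 lowest and replicate 3 highest. PLIN4, which overlapped between the breeds, was the largest part of this sum, at 9.93, 12.2 and 18.2 FPKM. ADIPOQ, FABP4, CIDEC and PLIN4 kept the order, while in replicate 2 PLIN1, LIPE and LEP were highest and CIDEA was lowest. The order of CA3 was not that of the slow-fibre sum, in which replicate 2 was lowest and replicates 1 and 3 lay close together. Fewer cells of a type and less RNA per cell cannot be told apart in these bulk samples, and the part of fat cells and of slow fibres in the level of CA3 was not tested.

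**Figure D3:**
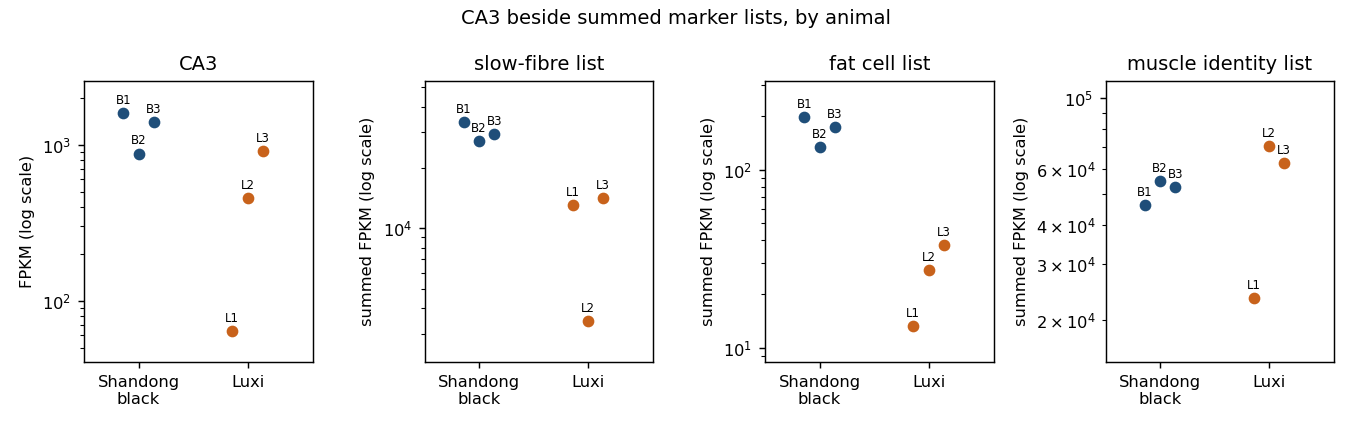
FPKM of CA3 and summed FPKM of the slow-fibre, fat cell and muscle identity lists (log axes) in each animal, Shandong black cattle (B1 to B3) blue and Luxi cattle (L1 to L3) orange. The fat cell sum separates the breeds (134 to 196 against 13.2 to 37.8), and Luxi replicate 1 is the lowest animal in CA3, the fat cell sum and the muscle identity sum.

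The genes whose pattern over the 6 animals was most like that of CA3, by the root mean square difference of centred log2(FPKM + 1), were ATP6 (0.344), MYOG (0.420) and FYTTD1 (0.559). ATP6, a mitochondrial gene for a subunit of the ATP synthase, had 968, 710 and 935 FPKM in the Shandong black animals and 43.5, 512 and 991 FPKM in the Luxi animals. MYOG, the muscle transcription factor myogenin, had 51.5, 12.4 and 42.2 FPKM in the Shandong black animals and 1.15, 7.89 and 24.4 FPKM in the Luxi animals. All of them had their lowest value in Luxi replicate 1. The likeness rested on that library, since without it they ranked 415, 762 and 1353 among the tested genes and CLCF1, GLIS3 and THBS1 were the most like CA3.

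CA14, the enzyme of the muscle fibre membrane, lies on chromosome 3 (chr3:20376430-20383671, minus strand). Its FPKM was 1.77, 3.13 and 2.85 in the Shandong black animals and 22.1, 34.1 and 21.8 in the Luxi animals. The lowest Luxi animal was 6.96 times the highest Shandong black animal. The mean was 2.58 ± 0.720 (SD, n = 3) in the Shandong black animals and 26.0 ± 7.03 (SD, n = 3) in the Luxi animals, a ratio of 10.1 and a log2 difference of 2.91 (SE 0.26). Luxi replicate 1 did not stand apart here, and without it the ratio of the means was 10.8.

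The higher level of CA14 was seen along the whole transcript. Each of the 11 exons of the leading transcript had more coverage per gigabase in every Luxi animal than in any Shandong black animal, with ratios of the breed means from 7.92 to 13.6. The first exon, of 882 bases, had the lowest coverage in all animals, at 0.299 to 0.864 per gigabase in the Shandong black animals and 6.51 to 9.08 in the Luxi animals. The leading transcript held 81.4, 73.8 and 76.0% of the FPKM of the gene in the Shandong black animals and 89.0, 83.2 and 92.3% in the Luxi animals. Another annotated transcript, with a 5′ end at position 20383669 and a second exon of 97 instead of 21 bases, held 18.6, 14.7 and 22.5% in the Shandong black animals and 11.0, 4.19 and 7.68% in the Luxi animals. Both shares separated the breeds, upwards in the Luxi animals for the leading transcript and downwards for the other (exact two-sided permutation p = 0.1 for each, the smallest possible, and 0.1 adjusted over 4 transcripts). The 2 transcripts tested held all of CA3 and most of CA14, so the shares of a gene move against each other. The 4 shares are therefore not independent, and the opposite shift is no further result. The level of the less common transcript was still higher in the Luxi animals, at 1.43 to 2.44 FPKM against 0.328 to 0.641 FPKM.

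The genes most like CA14 over the 6 animals were DDIT4 (root mean square difference 0.205), AGO2 (0.254) and SLC16A3 (0.272). DDIT4, a stress-induced inhibitor of mTOR signalling, had 6.71, 9.32 and 8.51 FPKM in the Shandong black animals and 58.0, 68.6 and 41.9 FPKM in the Luxi animals (log2 difference 2.62). AGO2, which binds small RNAs, had a log2 difference of 3.11, and 33.2% of its FPKM lay on reference transcripts, on which alone the difference was 1.05. SLC16A3 encodes the lactate carrier of glycolytic muscle and is described with the other carriers. These genes were picked for their likeness to CA14 in the same animals, so their difference between the breeds follows from the choice. Without Luxi replicate 1 they ranked 3, 5 and 7 among the tested genes by likeness.

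CA2, the fast cytosolic enzyme, lies next to CA3 on chromosome 14 (chr14:76994568-77012210, minus strand), with 16764 bases between the genes. Its FPKM was 4.96, 5.78 and 4.34 in the Shandong black animals and 4.45, 2.61 and 2.93 in the Luxi animals. Luxi replicate 1 lay within the range of the Shandong black animals and the other Luxi animals below it. The mean was 5.03 ± 0.724 (SD, n = 3) in the Shandong black animals and 3.33 ± 0.981 (SD, n = 3) in the Luxi animals, a log2 difference of -0.49 (SE 0.21). In the 7 exons of CA2 the ratio of the means, Shandong black over Luxi, was 1.25 to 2.71, and 3 of the exons did not overlap between the breeds. CA2 is also abundant in red blood cells. The red blood cell markers HBB, HBA and HBA1 summed to 0.539 to 0.777 FPKM in the Shandong black animals and 0.199 to 1.34 in the Luxi animals, close to 0 in all animals, and the other 5 markers of that list had no transcript.

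CA2 and CA14 exchanged places between the breeds. The CA14 to CA2 ratio was 0.356, 0.541 and 0.657 in the Shandong black animals, with CA2 higher in each animal. In the Luxi animals it was 4.97, 13.1 and 7.42, with CA14 higher in each animal. Outside CA3, the summed FPKM of the family was 8.86, 11.6 and 9.04 in the Shandong black animals and 31.3, 40.6 and 28.5 in the Luxi animals, and most of the Luxi sum was CA14.

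CA4, the surface-anchored enzyme, lies on chromosome 19 (chr19:12804061-12811833, minus strand). Its FPKM was 0.626, 1.58 and 0.818 in the Shandong black animals and 2.80, 2.17 and 0.718 in the Luxi animals. Luxi replicates 1 and 2 were above all Shandong black animals, while Luxi replicate 3 lay among them. The mean was 1.01 ± 0.502 (SD, n = 3) and 1.89 ± 1.07 (SD, n = 3), with a log2 difference of 0.48 (SE 0.33), 0.25 without Luxi replicate 1, 0.82 without Luxi replicate 3 and 0.76 with a pseudocount of 0.1. Reference transcripts held 80.5% of its FPKM. In Shandong black replicate 1 its 2 annotated transcripts held 4.59 and 9.45%, the rest lying on an assembled transcript that extended past the annotated 5′ end.

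Since CA4 is found on capillaries, endothelial genes are given beside it. The summed FPKM of 9 endothelial markers was 35.6, 32.0 and 37.4 in the Shandong black animals and 111, 41.9 and 58.5 in the Luxi animals. It was higher in every Luxi animal, with the highest sum and the highest CA4 both in Luxi replicate 1. Other animals differed in order. Luxi replicate 3, with a sum of 58.5, had a CA4 of 0.718 FPKM. Shandong black replicate 2 had the lowest sum, 32.0, and the highest CA4 of its breed, 1.58 FPKM. No endothelial gene was called by limma, and 4 of the 9 had an unadjusted p under 0.05. Many other genes met this cut too. By limma p among all genes tested, CDH5, FLT1, EMCN and PECAM1 ranked 493, 976, 1208 and 1620, so the count alone does not set the list apart. The median log2 difference of the 9 genes was 0.59, against 0.13 over all genes tested, and without Luxi replicate 1 it was 0.22, against 0.16. The part of endothelial cells in the level of CA4 was not tested. The genes most like CA4 were FSD2 (root mean square difference 0.123), PDE8B (0.150) and VARS2 (0.173). Without Luxi replicate 1 they ranked 1, 26 and 69. Of the VARS2 FPKM, 34.8% lay on reference transcripts, on which alone its log2 difference was 0.19 instead of 0.58.

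CA11, without classical activity, lies on chromosome 18 (chr18:55279505-55285895, minus strand). Its FPKM was 0.119, 0.216 and 0.272 in the Shandong black animals and 0.889, 1.06 and 2.33 in the Luxi animals. The breeds did not overlap, and the lowest Luxi animal was 3.27 times the highest Shandong black animal. The mean was 0.203 ± 0.0773 (SD, n = 3) and 1.43 ± 0.784 (SD, n = 3), a log2 difference of 0.97 (SE 0.25). At this low level the size of the difference depended on the pseudocount, and with 0.1 in place of 1 it was 2.25. In the Luxi animals one transcript of 9 exons held 99.2, 96.3 and 96.1% of the FPKM, while in the Shandong black animals each animal rested mainly on a different transcript model, 1 of them assembled from the reads.

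CA11 is best known from the brain, so nerve and Schwann cell genes are given beside it. Their summed FPKM was 122, 48.5 and 94.7 in the Shandong black animals and 29.5, 9.53 and 23.0 in the Luxi animals, and lower in every Luxi animal. S100B, which fat cells and muscle also express, made up most of this sum. MBP, the myelin basic protein and the other gene of this list that was tested, was higher in every Luxi animal, at 1.86, 1.79 and 0.821 FPKM against 0.415, 0.379 and 0.252 FPKM, and neither gene was called (limma adjusted p = 0.0832 and 0.0901). Of the 8 markers, SOX10 and NEFL had no transcript. The part of nerve cells in the level of CA11 was not tested. The genes most like CA11 were LOC112449549 (root mean square difference 0.0685), LRRC72 (0.0841) and RPL23 (0.0937). Without Luxi replicate 1 they ranked 5, 8 and 12. Of the LOC112449549 FPKM, 47.0% lay on reference transcripts, on which alone its log2 difference was 0.58 instead of 1.03. RPL23, a ribosomal protein gene, had 145, 140 and 166 FPKM in the Shandong black animals and 249, 265 and 482 FPKM in the Luxi animals (log2 difference 1.07). Its highest value, like that of CA11, was in Luxi replicate 3.

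CA8, the partner of the inositol trisphosphate receptor, lies on chromosome 14 (chr14:25956307-26038348, minus strand) and did not reach the filter. It was listed at 0, 0.261 and 0.207 FPKM in the Shandong black animals and at 0.178, 0.214 and 0.0691 FPKM in the Luxi animals. The breeds overlapped, with a log2 difference of 0.00, and 26.6% of its FPKM lay on reference transcripts. In 3 of the 5 animals with a value it was seen on an assembled transcript of 7 exons only. Of its receptor genes, ITPR2 had 3.57, 4.95 and 3.88 FPKM in the Shandong black animals and 5.70, 2.51 and 4.23 FPKM in the Luxi animals (limma adjusted p = 0.950). ITPR3 had 1.28, 1.41 and 0.202 FPKM in the Shandong black animals and 1.18, 1.17 and 1.81 FPKM in the Luxi animals (limma adjusted p = 0.534), and ITPR1 had no transcript. Neither of the 2 receptor genes tested had an unadjusted p under 0.05. Reference transcripts held 54.0% of the FPKM of ITPR2 and 2.86% of that of ITPR3, the rest lying on assembled transcripts.

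Of the 15 carbonic anhydrase genes in the RefSeq gene table, 8 had a transcript in these files. Besides the 6 genes above these were CA5B, a mitochondrial enzyme, and CA12, a membrane enzyme. CA5B had 0.419, 0.511 and 0.369 FPKM in the Shandong black animals and 0.755, 0.225 and 0.355 FPKM in the Luxi animals. CA12 had 0.961, 0.146 and 0.191 FPKM in the Shandong black animals and 0.136, 0.240 and 0.286 FPKM in the Luxi animals. Both stayed under the filter and overlapped between the breeds. CA1, CA5A, CA6, CA7, CA9, CA10 and CA13 had no transcript.

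In the Shandong black animals the levels stood in the order CA3, CA2, CA14, CA4, CA5B, CA12, CA11 and CA8. Each of the first 4 was above the next gene in all animals, while CA5B and CA12, CA12 and CA11, and CA11 and CA8 overlapped. In the Luxi animals the order was CA3, CA14, CA2, CA4, CA11, CA5B, CA12 and CA8. There CA3, CA14 and CA2 were separate, and CA11 was separate from CA5B, while CA2 overlapped with CA4, CA4 with CA11, CA5B with CA12 and CA12 with CA8.

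The genes that work with carbonic anhydrases in acid-base balance were tested in 4 groups. Among the 11 carriers of lactate and protons tested, 8 had a positive and 3 a negative log2 difference. In this group 2 were called higher in the Luxi animals and none lower, against 1.54% and 1.02% of all genes tested. Without overlap, 3 were higher and 1 lower, against 20.0% and 9.13% of all genes tested. The median log2 difference was 0.14, against 0.13 over all genes tested, or -0.04 without Luxi replicate 1. SLC16A3, the monocarboxylate carrier MCT4 that exports lactate together with a proton, had 0.683, 0.679 and 0.478 FPKM in the Shandong black animals and 10.7, 12.6 and 7.01 FPKM in the Luxi animals. Every Luxi animal was far above every Shandong black animal, with a log2 difference of 2.75 (SE 0.22, limma adjusted p = 0.00733). Its call was lost in 1 of the 14 other fits, that without Shandong black replicate 3, with an adjusted p of 0.0558.

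SLC9A5, a sodium-proton exchanger, had 0.502, 0.821 and 0.429 FPKM in the Shandong black animals and 4.49, 2.58 and 3.96 FPKM in the Luxi animals. It rose without overlap, with a log2 difference of 1.55 (SE 0.21, limma adjusted p = 0.0206). Its call was lost without a filter, on reference transcripts alone, with the replicate block and without Shandong black replicate 1, Shandong black replicate 3 or Luxi replicate 3, with adjusted p-values up to 0.120, and it was not tested with a mean of at least 5 FPKM. BSG, or basigin, the chaperone of MCT1 and MCT4, had 87.9, 106 and 96.7 FPKM in the Shandong black animals and 159, 167 and 153 FPKM in the Luxi animals, and did not pass the test (log2 difference 0.72, limma adjusted p = 0.151) although the breeds did not overlap. SLC16A1, or MCT1, the carrier of oxidative fibres, had 15.6 FPKM on average in the Shandong black animals and 17.6 in the Luxi animals, with overlap (log2 difference 0.05, limma adjusted p = 0.951). SLC9A2, another sodium-proton exchanger, was lower in every Luxi animal, at 4.66, 4.08 and 3.62 FPKM against 8.84, 5.23 and 7.83 FPKM, and did not pass the test (log2 difference -0.68, limma adjusted p = 0.135). CHP1, which binds sodium-proton exchangers, had a log2 difference of -0.14 (limma adjusted p = 0.679).

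None of the 6 bicarbonate carriers and their regulators tested was called by limma, and none had an unadjusted p under 0.05. Their median log2 difference was 0.26. SLC4A4, the sodium-bicarbonate cotransporter NBCe1, had 3.61, 2.78 and 2.72 FPKM in the Shandong black animals and 3.05, 6.41 and 8.15 FPKM in the Luxi animals. Luxi replicate 1 lay within the Shandong black range, and the log2 difference was 0.69 (limma adjusted p = 0.242). Without that animal SLC4A4 was the 1 gene called in this group, in a fit that called 593 of all 9707 genes tested. AHCYL1 and AHCYL2, which regulate such cotransporters, had log2 differences of 0.20 and -0.31 (limma adjusted p = 0.548 and 0.566).

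None of the 7 carboxylase genes tested, whose enzymes use bicarbonate as a substrate, was called by limma, and none had an unadjusted p under 0.05. Their median log2 difference was 0.09. ACACB, the acetyl-CoA carboxylase of the mitochondrial surface, had a mean of 9.44 FPKM in the Shandong black animals and 14.8 FPKM in the Luxi animals with overlap (limma adjusted p = 0.296). PCCA and PCCB, the subunits of propionyl-CoA carboxylase, had log2 differences of -0.27 and 0.23 (limma adjusted p = 0.381 and 0.611). Among the 4 genes tested for carnosine, a dipeptide that buffers protons in muscle, 3 had a positive log2 difference and 1 was called higher. Of all genes tested, 1.54% were called higher. The median log2 difference of the 4 genes was 0.32, or 0.15 without Luxi replicate 1. CARNS1, the carnosine synthase, had 0.979, 0.611 and 0.552 FPKM in the Shandong black animals and 1.98, 5.14 and 3.91 FPKM in the Luxi animals, without overlap (log2 difference 1.39, limma adjusted p = 0.0492). It was called in 3 of the 8 alternatives and in 1 of the 6 fits without an animal.

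**Figure D4:**
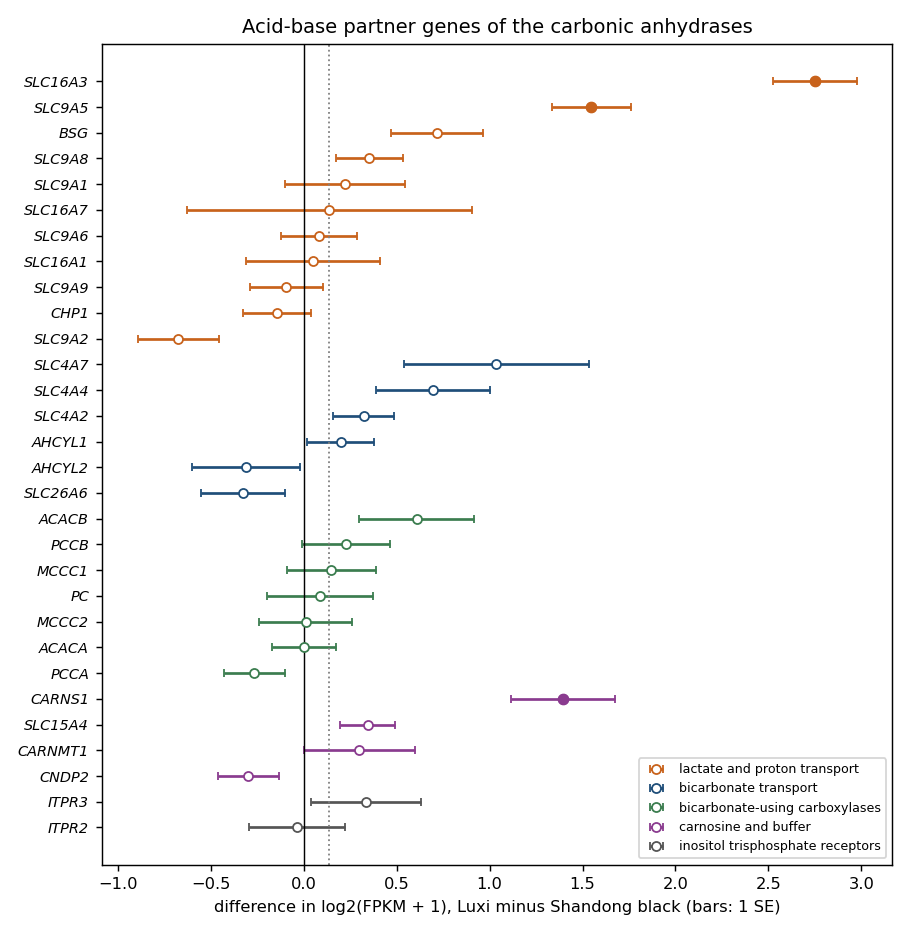
Difference in log2(FPKM + 1), Luxi minus Shandong black cattle, with 1 SE, for the tested genes of lactate and proton transport, bicarbonate transport, bicarbonate-using carboxylases, carnosine and the inositol trisphosphate receptors; filled points passed the test and the dotted line is the median of all genes tested, 0.13. SLC16A3, SLC9A5 and CARNS1 are the filled points, at 2.75, 1.55 and 1.39.

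The fast-fibre list gives the setting in which CA14 and SLC16A3 were high. The summed FPKM of its 12 genes was 4151, 5988 and 6824 in the Shandong black animals and 5671, 34089 and 31609 in the Luxi animals. Luxi replicate 1 lay within the Shandong black range, although its CA14, at 22.1 FPKM, and its SLC16A3, at 10.7 FPKM, were at the level of the other Luxi animals. All 11 fast-fibre genes tested had a positive log2 difference, with a median of 2.10, and none was called by limma, while 6 had an unadjusted p under 0.05. Many other genes met this cut too, since the 6 ranked from 747 (TNNT3) to 1900 (ACTN3) by limma p among all genes tested. Without Luxi replicate 1 the median was 3.03 and 6 were called. That fit called more genes of every kind, 593 of all 9707 tested against 251 with all animals, and 463 of the 593 were higher in the Luxi animals. The macrophage sum was 37.3, 31.3 and 42.9 FPKM in the Shandong black animals and 32.8, 21.7 and 16.1 FPKM in the Luxi animals. The part of fibre types and of other cell types in the levels of CA14 and SLC16A3 was not tested.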

How the data were processed

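RNA-Seq libraries of 6 animals were used, grouped by the breed in the labels. The authors used Fastp for trimming, HISAT for alignment to ARS-UCD1.2, and StringTie with the NCBI annotation for each library. The StringTie version in the file headers differs from that of the Methods, and the headers give a strand option, although the labels do not call the kit stranded. The same-strand rule rests on that option. Each transcript has 3 deposited values, coverage, FPKM and TPM, of which the TPM of a library was not rescaled to 1 fixed sum. Gene FPKM was summed from the reference transcripts and from assembled ones of the same strand with 50% or more of their bases on exons of the gene. Assembled transcripts left out held 21.6 to 29.9% of the FPKM. A transcript absent from a file was counted as 0. No counting error is given, since counts were not used here, and the number of animals limits the precision. Aligned gigabases are the ratio of coverage to FPKM.

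Genes that reached a mean FPKM of 1 in either breed were tested with limma 3.58.1 in R 4.3.3 (lmFit, eBayes with trend) on log2(FPKM + 1), with Benjamini-Hochberg adjustment over all 9781 genes. This takes the place of the study's Cuffdiff, which needs alignments. Transcript shares were compared by exact two-sided permutation tests for genes with at least 2 reference transcripts of a mean FPKM of at least 0.1. The members and the lists were chosen with earlier results of these data known, so the lists are no independent evidence. The genes named are the members, the other carbonic anhydrase genes, the called genes and the 3 genes of highest mean FPKM in each list of acid-base partners, and the 3 genes most like each tested member whose SD of log2(FPKM + 1) was at least 0.5; other list genes were named where a result turned on them. Alternatives were a pseudocount of 0.1, no filter, a mean FPKM of at least 5, median-of-ratios size factors, TPM, reference transcripts only, eBayes without the trend, a replicate block, and leaving out each animal. List medians and likeness without Luxi replicate 1 were added after seeing the data. A comparison of the protein sequences was planned and not run, and no sequences were used here. Python 3.11.15 with pandas 2.3.3 and scipy 1.17.1 was used.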

Additional observations from a re-analysis of the deposited data

How the results depend on the processing

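The count of 251 called genes (151 higher and 100 lower in Luxi) became 63 without a filter, 134 with a mean of at least 5 FPKM, 163 with reference transcripts alone and 135 with the replicate block, and 3 to 593 when 1 animal was left out, with 3 without Shandong black replicate 3 and 593 without Luxi replicate 1. Size factors gave 115 higher against 145 lower calls, and under them the median log2 difference of all genes moved from 0.13 to 0.02. Without Shandong black replicate 2, 76 were higher and 106 lower. In the lactate and proton list, the 2 calls became 1 without a filter, with the mean of at least 5 FPKM, with reference transcripts alone and with the block, and 0 to 2 without single animals. In the carnosine list, the 1 call became 0 without a filter, with reference transcripts alone, with the block and under eBayes without the trend, and 0 to 1 without single animals, while with the mean of at least 5 FPKM no gene of the list was tested, which gives 0. In the bicarbonate transport list, 0 became 0 to 1, with 1 without Luxi replicate 1. The count of the carboxylase list was 0 in each fit. CA11 moved from 0.97 to 2.25 with a pseudocount of 0.1 and 1.47 with TPM, and CA14 from 2.91 to 3.29 with a pseudocount of 0.1, while the log2 difference of CA3 ran from -2.86 to -0.95 without single animals. At the levels of CA8 and CA11 the pseudocount sets most of the size. Neither the directions of CA2, CA3, CA4, CA11 and CA14 nor those of the 4 transcript shares changed in the fits run, and that of CA8, near 0, did. Same-numbered animals correlated at 0.0840, 0.0869 and 0.0745 in their deviations, all under 0.1. Each was above every pair of unlike number, which lay at -0.107 to 0.00834. As the values were small, the numbers were not taken to pair the animals, and what they mark was not tested. The log2 differences of the 6 genes were identical with the block, as the design is balanced. The cause of these moves was not tested, apart from fewer genes with the higher filter.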
